A study of Mus musculus with 2 samples.

Results

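The subject is the transcripts of 8 genes of the BCL2 family in sorted mouse regulatory T (Treg) cells. These were Bcl2, Bcl2l1 and Mcl1, which hold cells back from death, and Bcl2l11, Bbc3, Pmaip1, Bax and Bak1, which drive it. They were taken by symbol from the 32285 features of the count tables, and all 8 were found, each as 1 feature. Treg cells labelled with MitoTracker, a dye that collects in mitochondria, had been sorted by fluorescence, and the bright and dim fractions are called Mito-high and Mito-low below. The series title places the work in a study of copper and the suppressive function of these cells. Each population gave 1 library made with the Chromium 5′ chemistry of 10x Genomics, which counts transcripts as unique molecular identifiers (UMIs). Both libraries share the Treg sort and the dye; the sources used here do not give genotype, strain, tissue, treatment or age of the mice, or how many were pooled.

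BCL2 family proteins decide whether the outer membrane of mitochondria stays closed. BCL2, BCL-XL (from Bcl2l1) and MCL1 bind and restrain BAX and BAK, the members that form pores in that membrane, while the BH3-only proteins BIM (Bcl2l11), PUMA (Bbc3) and NOXA (Pmaip1) occupy the restraining proteins and free the pore formers. In Treg cells the family is known as the point at which interleukin-2 signals, MCL1 and BIM set how long a cell lives.

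Barcodes with at least 500 detected genes and at most 20% of UMIs from mitochondrially encoded genes were kept, which left 12217 of 12352 in the Mito-high and 11679 of 11901 in the Mito-low library, with median depths of 6132 and 4668 UMIs. Resting cells, defined by at least 1 UMI of Igfbp4, made up 22.6% of Mito-high (2765 cells) but 1.58% of Mito-low (185 cells). Effector cells, defined by detection of at least 2 of Ccl5, Il10 and Klrg1, made up 1.35% (165 cells) and 13.1% (1530 cells). All remaining cells are called other cells (9281 and 9961), and the 6 and 3 cells that met both rules were set aside. Both rules rest on detection: with every cell sampled down to 2000 UMIs (thinning), 1435 and 102 cells met the resting and 48 and 739 the effector rule. Ratios within classes after thinning use these redrawn classes. Thinned shares and UMIs per cell keep the classes as first drawn. Of the 5 Treg markers, Foxp3 was at 25.8 and 41.0 counts per 1000000 UMIs (CPM), Ctla4 at 1043 and 1548, Ikzf2 at 1325 and 1899 and Tnfrsf18 at 221 and 357, while Il2ra was higher in Mito-high, at 209.6 and 157. All 5 were thus present in both libraries. B cell markers summed to 19.1 and 17.0 CPM and myeloid markers to 3.21 and 2.83 CPM. Other transcripts moved with the libraries: 4 RNA quality transcripts led by Malat1 and Gm42418 summed to 11143 CPM in Mito-high cells and 22253 CPM in Mito-low cells, and 7 cycling markers to 239 and 46.5 CPM. Their part in the results below was not tested beyond leaving cells out. Over all kept cells the log2 ratios of Bcl2, Bcl2l11 and Pmaip1 were 1.20, 0.91 and −0.93. Without cycling cells, those with at least 3 of the 7 markers, they were 1.30, 1.01 and −0.91. Without the 5% of cells with the largest Gm42418 share they were 1.35, 0.91 and −0.94. The libraries shared 38 barcodes, 35 of them kept. Without these barcodes the all-cell log2 ratios of Bcl2, Bcl2l11 and Pmaip1 were again 1.20, 0.91 and −0.93.

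The sequence before the start sites is shown for 4 members whose levels differed between the classes of cells, Bcl2, Bcl2l11 and Bbc3, which were high in resting cells, and Bcl2l1, which was high in effector cells. Each line gives the 250 bases upstream of 1 RefSeq start site on GRCm38.p6, 5′ to 3′ on the strand of the gene, taken from a table that held such windows for 7 of the 8 members. Capitals mark matches, on either strand, to the forkhead word GTAAACA or to TGACG, the core of the cyclic AMP response element.
Bcl2l11: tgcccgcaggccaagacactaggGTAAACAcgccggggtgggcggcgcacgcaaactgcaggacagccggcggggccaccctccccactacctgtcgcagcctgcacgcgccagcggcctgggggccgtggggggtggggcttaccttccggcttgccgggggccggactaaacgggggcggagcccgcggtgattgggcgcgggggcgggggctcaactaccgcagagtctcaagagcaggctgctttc
Bbc3: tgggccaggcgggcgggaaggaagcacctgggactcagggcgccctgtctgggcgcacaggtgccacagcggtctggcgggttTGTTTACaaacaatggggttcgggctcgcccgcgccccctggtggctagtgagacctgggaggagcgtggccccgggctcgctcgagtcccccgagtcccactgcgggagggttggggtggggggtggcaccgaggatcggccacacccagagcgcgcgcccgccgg
Bcl2: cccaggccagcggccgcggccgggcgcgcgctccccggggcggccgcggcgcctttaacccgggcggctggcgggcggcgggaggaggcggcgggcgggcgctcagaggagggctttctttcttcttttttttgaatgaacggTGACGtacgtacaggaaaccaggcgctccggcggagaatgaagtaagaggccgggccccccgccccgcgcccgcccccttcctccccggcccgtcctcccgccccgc
Bcl2l1: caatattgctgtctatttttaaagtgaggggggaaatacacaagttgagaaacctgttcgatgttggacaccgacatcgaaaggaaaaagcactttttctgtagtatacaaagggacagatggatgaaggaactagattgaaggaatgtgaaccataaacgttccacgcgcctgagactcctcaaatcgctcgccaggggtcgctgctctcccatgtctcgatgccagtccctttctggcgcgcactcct
The Bcl2l11 window is chr2:128125788-128126037 on the plus strand, upstream of the first of its start sites, and holds GTAAACA. The Bbc3 window is chr7:16310011-16310260 on the plus strand and holds the same word on the opposite strand, read here as TGTTTAC. The word occurs in 3.17% of 32851 windows of this length from the same table. That is a rate per window. The windows shown for Bcl2l11 and Bbc3 are those of several start sites that hold the word, so the rate gives no test. The Bcl2 window is chr1:106714291-106714540 on the minus strand and holds TGACG, which 17.8% of windows hold. The Bcl2l1 window is chr2:152831729-152831978 on the minus strand and holds none of the forkhead word, TGACG, the STAT word TTCNNNGAA (7.02% of windows) or the E-box CACGTG (6.02%). The GC box GGGCGG, searched on both strands and left in lower case, occurs in 32.7% of windows and 7, 3, 1 and 0 times in those of Bcl2, Bcl2l11, Bbc3 and Bcl2l1. None of the 4 windows overlaps an annotated exon, and Bcl2l11 and Bbc3 each have further start sites whose windows lack the forkhead word. Bcl2l1 also has further start sites, whose windows overlap its own exons and hold none of the words named. The Bbc3 window shown is not that of its first start site. Of its other windows, chr7:16309333-16309582 holds TGACG on the opposite strand and chr7:16310181-16310430 holds CACGTG. These matches describe the letters alone, since no binding was measured.

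Bcl2, the best known survival gene of lymphocytes, had the largest difference of the 8 genes between the libraries. Its gene spans 176 kb on the minus strand of chromosome 1 (chr1:106538178-106714274). Over all kept cells it was at 373 CPM in Mito-high, from 33499 UMIs, and at 162 in Mito-low, from 9812 UMIs. The log2 ratio was 1.20, with a 95% interval of 1.17 to 1.23 from counting error alone, or 2.30-fold. With 1 library per group there is no replicate check of this or any other difference between the libraries, no p-value can be given, and a ratio of 1.5-fold serves only to describe size. All intervals below are 95% intervals of counting error.

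Within classes the Bcl2 difference did not keep its size or its direction. In other cells the levels of Bcl2 were 331 and 170 CPM, a log2 ratio of 0.96 (0.93 to 0.999). In effector cells the levels were 98.0 and 59.9 CPM, for a log2 ratio of 0.72 (0.45 to 0.96). In resting cells Mito-high was the lower library, with 527 against 657 CPM and a log2 ratio of −0.32 (−0.43 to −0.21). The order of the 6 groups ran from resting through other to effector cells whichever library they came from, and the intervals of neighbouring groups did not overlap. When the classes were weighted alike in both libraries, with 12.1% resting, 7.23% effector and 80.7% other cells, the all-cell ratio of Bcl2 was 0.61 in place of 1.20. In other cells with no UMI of Igfbp4, Ccl5, Il10 or Klrg1, an alternative chosen after the data were seen, it was 0.77.

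Bcl2l1 encodes BCL-XL, a survival protein that activated T cells raise. Its gene lies on the minus strand of chromosome 2 (chr2:152780668-152831728). It was at 74.8 CPM in Mito-high cells and 87.2 CPM in Mito-low cells, a log2 ratio of −0.22 (−0.27 to −0.17). With classes weighted alike the ratio was 0.03. Its order by class ran opposite to that of Bcl2. Effector cells had 117 CPM in the Mito-high and 142 CPM in the Mito-low library, other cells 78.6 and 78.2 CPM, and resting cells 58.8 and 32.1 CPM. The intervals of the 2 groups of other cells overlapped, and those of all other neighbours did not. Among cells of 4000 to 6000 UMIs the all-cell ratio was −0.85, past 1.5-fold. The resting difference of 0.84 (0.40 to 1.39) rested on 36 Mito-low UMIs and was −0.62 among cells of 4000 to 6000 UMIs. After thinning it was 0.03 with classes redrawn. In the resting cells as first drawn, the thinned means were 0.094 UMIs per cell in Mito-high and 0.067 in Mito-low.

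Mcl1, whose protein turns over fast and on which lymphocytes depend, varied least across the groups among the anti-death genes. The gene is compact, 4.39 kb on the plus strand of chromosome 3 (chr3:95658788-95663176). It was at 357 CPM in Mito-high cells and 306 CPM in Mito-low cells, a log2 ratio of 0.22 (0.19 to 0.25). The highest group, resting cells of Mito-high, had 381 CPM and the lowest, effector cells of Mito-high, 280 CPM. The library difference was 0.31 in resting, 0.18 in other and −0.05 in effector cells, the last with an interval of −0.19 to 0.09 that spans 0. From the third to the sixth place in the order, neighbouring groups had overlapping intervals.

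**Figure D1:**
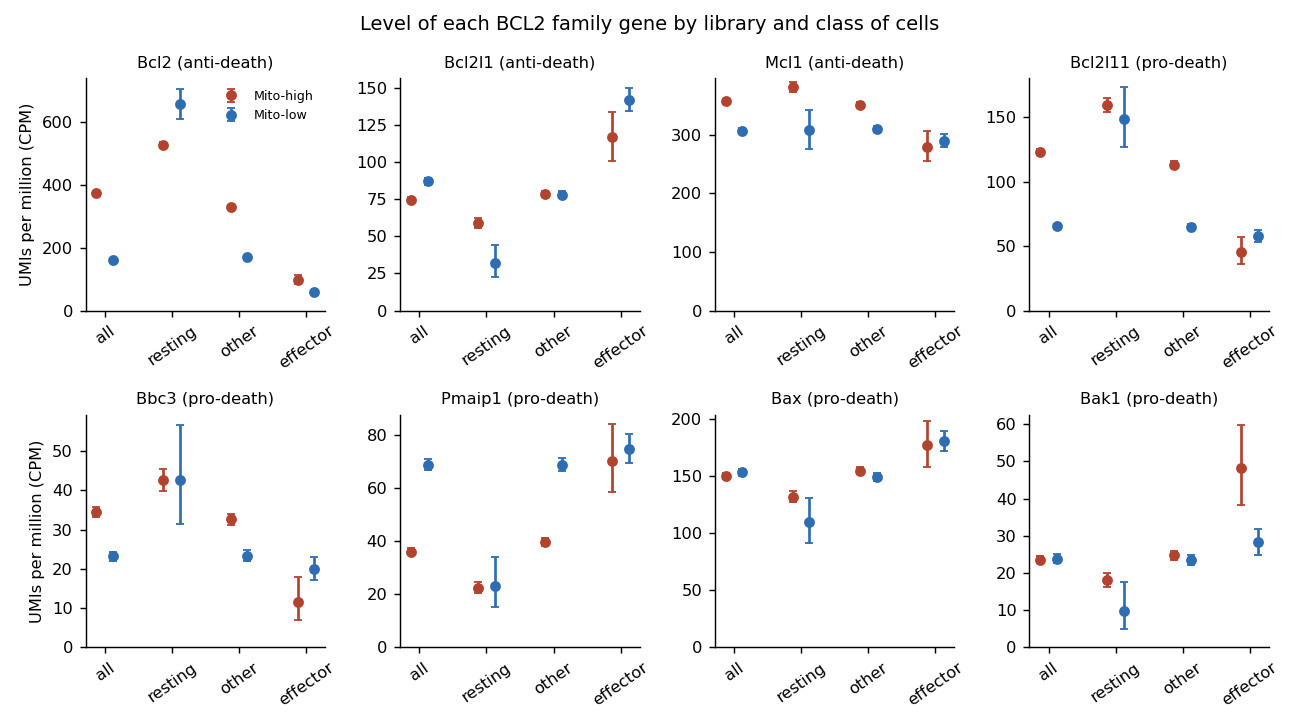
Level of each gene in CPM (linear axis from 0) for all kept cells and for the 3 classes, in the Mito-high (red) and Mito-low (blue) library. Points are sums over cells of 1 library and bars are exact Poisson 95% intervals of counting error; Bcl2, Bcl2l11 and Bbc3 run down from resting to effector cells, and Bcl2l1, Pmaip1, Bax and Bak1 run up.

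Bcl2l11 encodes BIM, the BH3-only protein that removes T cells when cytokine support ends. Its gene lies on the plus strand of chromosome 2 (chr2:128126038-128162547). Although it acts against Bcl2, it was higher in the same library: 123 CPM in Mito-high cells and 65.3 CPM in Mito-low cells, a log2 ratio of 0.91 (0.86 to 0.96) and 1.88-fold. In other cells the levels were 113 and 64.7 CPM, a log2 ratio of 0.81 (0.75 to 0.87). In resting cells they were 159 and 149 CPM (log2 ratio 0.09, interval −0.13 to 0.33), and in effector cells 45.8 and 57.7 CPM (−0.32, −0.69 to 0.01). Both intervals span 0, so a difference in these classes was not detectable at this depth. Resting cells had the most Bcl2l11 in both libraries and effector cells the least. Of the neighbours in that order, the resting pair and the effector pair had overlapping intervals, and so, between 62.5 and 62.8 CPM, did other and effector cells of Mito-low. The pair of other cells did not overlap.

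Bbc3 encodes PUMA, a BH3-only protein under p53 and FOXO control. Its gene lies on the plus strand of chromosome 7 (chr7:16308393-16318205). It was at 34.5 CPM in Mito-high cells and 23.2 CPM in Mito-low cells, a log2 ratio of 0.57 (0.48 to 0.67), or 1.49-fold, just inside the size used here. Resting cells were at 42.5 and 42.8 CPM, other cells at 32.6 and 23.4 CPM and effector cells at 11.6 and 19.98 CPM. The 2 resting groups could not be told apart (log2 ratio −0.04, interval −0.43 to 0.44), while other cells differed by 0.48 (0.38 to 0.59). Beside the resting pair, the intervals of Mito-low effector cells overlapped those of both their neighbours in the order. The effector ratio of −0.72 (−1.53 to −0.12) rested on 20 Mito-high UMIs, and its sign turned to 0.42 among cells of 4000 to 6000 UMIs and to 0.89 after thinning.

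Pmaip1 encodes NOXA, a BH3-only protein that binds MCL1. Of the 8 genes it had the largest difference toward Mito-low, with 36.0 CPM in Mito-high cells against 68.7 CPM in Mito-low cells, a log2 ratio of −0.93 (−0.999 to −0.87). In other cells the levels were 39.5 and 68.7 CPM, a log2 ratio of −0.80 (−0.87 to −0.72). Resting cells were low in both libraries, at 22.3 and 23.2 CPM, and effector cells high, at 70.2 and 74.6 CPM. Their ratios were −0.11 (−0.63 to 0.57) and −0.08 (−0.38 to 0.19), so a difference within these classes was not detectable at this depth. With classes weighted alike the all-cell ratio was −0.68. Other cells of Mito-low, at 68.7 CPM, were within the interval of the Mito-high effector cells, 58.2 to 83.9 CPM. Of 14 dissociation stress genes at 20 CPM or more, 4 were past 1.5-fold toward Mito-low over all cells, against 10.7% of all genes. Among the 4 was Atf3 with a log2 ratio of −1.46. The summed level of the whole list of 17 genes in other cells was 9262 CPM for Mito-high against 11363 CPM for Mito-low. In resting cells it was 8982 and 8379 CPM, and in effector cells, where no difference in Pmaip1 was detectable, 8962 and 11868 CPM. The part of these genes in the level of Pmaip1 was not tested.

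Bax and Bak1 encode the pore formers. Bax lies on chromosome 7 (chr7:45461697-45466898) and Bak1 on chromosome 17 (chr17:27019810-27029009), both on the minus strand. Bax was at 150 CPM in Mito-high cells and 153 CPM in Mito-low cells (log2 ratio −0.03, interval −0.07 to 0.01), and Bak1 at 23.6 and 23.9 CPM (−0.02, −0.11 to 0.08). Both intervals span 0 and exclude differences of 1.5-fold as far as counting error goes. Other scalings moved the median of all genes by 0.13 to 0.19 on the log2 scale and turned both signs, to 0.16 for Bax and 0.17 for Bak1 with TMM. They left the signs of the other 6 genes in all cells. Under each of them Bbc3 passed 1.5-fold, with 0.76 under TMM. Bax was highest in effector cells, at 177 and 181 CPM, and lowest in resting cells, at 132 and 110 CPM, with 155 and 149 CPM in other cells. The intervals of its levels overlapped between the libraries in each class. Those of its log2 ratio lay just above 0 in resting (0.26, 0.0056 to 0.54) and other cells (0.05, 0.0097 to 0.096). In effector cells the interval spanned 0 (−0.03, −0.21 to 0.15). Bak1 was at 24.7 and 23.4 CPM in other cells and 18.0 and 9.80 CPM in resting cells. It had 48.1 CPM in effector cells of Mito-high and 28.2 in those of Mito-low, a log2 ratio of 0.78 (0.40 to 1.13) from 83 and 264 UMIs. Cycling markers summed to 569 and 53.5 CPM in these effector cells, and cycling cells had 42.3 and 57.2 CPM of Bak1. The part of cycling in this ratio was not tested. The resting ratio of Bak1, 0.75 (0.02 to 1.89), rested on 11 Mito-low UMIs and was −0.26 after thinning with classes redrawn.

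Over all cells 2 of the 8 genes, Bcl2 and Bcl2l11, passed 1.5-fold toward Mito-high, against 3.65% of the 5787 genes that reached 20 CPM in either library. Pmaip1 alone passed it toward Mito-low, against 10.7% of genes. The remaining 5 lay between. The median log2 ratio was 0.10 for the 8 genes and −0.15 for all genes, with 0.22 for the 3 anti-death and −0.02 for the 5 pro-death genes. In other cells the same 2 genes were higher and the same gene lower, against 3.5% and 9.14% of 5765 genes. In resting cells Bcl2l1 and Bak1 passed 1.5-fold upward, both on few UMIs, against 3.83% of 5457 genes, and none passed it downward, against 6.12%. In effector cells Bcl2 and Bak1 passed it upward, against 9.85% of 6032 genes, and Bbc3 downward, against 12.4%. Bak1 in resting cells and Bbc3 in effector cells were below 20 CPM in both libraries, so those backgrounds do not include them.

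**Figure D2:**
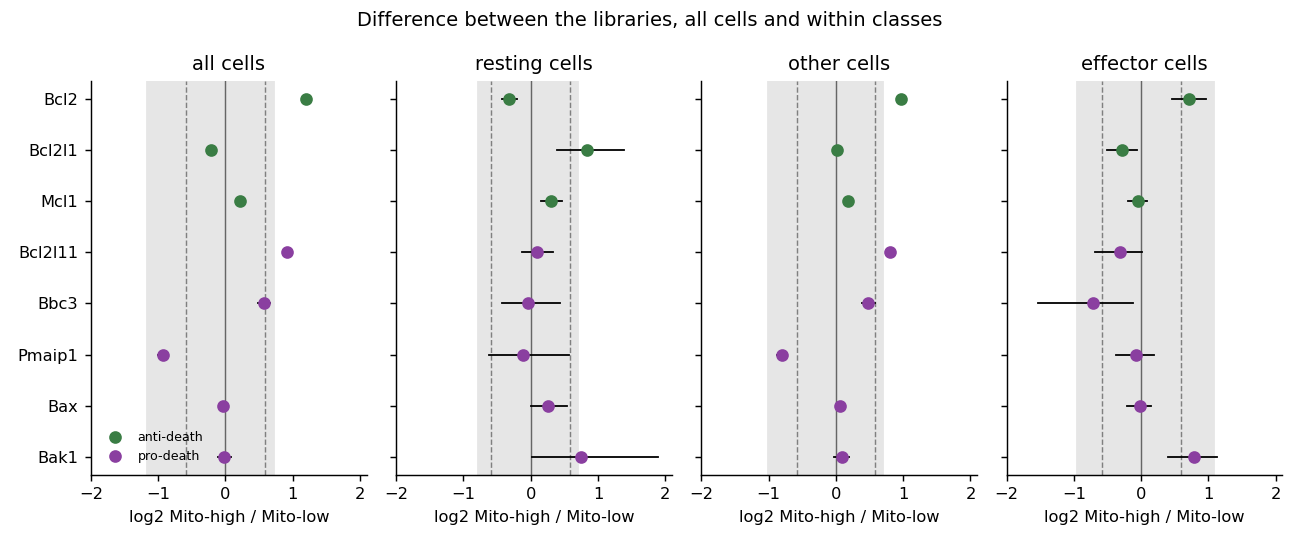
Mito-high to Mito-low ratio of each gene on a log2 axis, in all kept cells and in the 3 classes. Points are anti-death (green) or pro-death (purple) genes, bars are exact 95% intervals of counting error, dashed lines mark 1.5-fold and the grey band holds the central 95% of all genes at 20 CPM or more; over all cells Bcl2 at 1.20 and Bcl2l11 at 0.91 lie above the band, and in resting cells Bcl2 lies at −0.32.

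The summed UMIs of the 3 anti-death genes were set against those of the 5 pro-death genes, a ratio inside each library that needs no scaling to depth or to gene length. Over all cells it was 2.19 in Mito-high and 1.66 in Mito-low, a log2 difference of 0.40 (0.37 to 0.43). The summed level differed more for the anti-death genes, 804 and 556 CPM, than for the pro-death genes, 367 and 334 CPM. Within the pro-death sum Bcl2l11 and Pmaip1 differed in opposite directions, with log2 ratios of 0.91 and −0.93. In other cells the ratio of anti-death to pro-death UMIs was 2.09 and 1.69 (log2 difference 0.30, interval 0.27 to 0.34). In resting cells the order turned, with 2.58 in Mito-high and 2.98 in Mito-low (−0.21, −0.38 to −0.03), but with each gene weighted alike the resting difference was 0.083, of the other sign. In effector cells the ratios were 1.40 and 1.36 (0.04, −0.12 to 0.21), which did not differ beyond counting error. On these 8 genes resting and effector cells of 1 library were thus further apart than the libraries were within any class. With classes weighted alike the all-cell difference was 0.20, without Pmaip1 0.22, and with the wider family added, which brings in the Bcl2a1 genes, 0.038. The added anti-death genes summed to 137 CPM in resting and 636 CPM in effector cells of Mito-high, and to 117 and 748 CPM in Mito-low. For the added pro-death genes the sums were 186 and 227 CPM, and 181 and 231 CPM. In both libraries the added anti-death genes thus ran against the balance of the 8 genes, with the higher sum in effector cells. The ratio of the wider family was not computed for resting and effector cells. The statement on these classes covers the 8 genes alone, and no lower balance in effector cells is read for the family as a whole.

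The make-up of each sum also differed between the classes. In Mito-high 46.3% of anti-death UMIs were of Bcl2, against 29.2% in Mito-low. It gave 54.5% and 65.9% in resting cells but 19.8% and 12.2% in effector cells, where Bcl2l1 gave 23.6% and 28.9%. The ratio of Bcl2 to Bcl2l1 was 8.97 in Mito-high and 20.5 in Mito-low among resting cells, 4.21 and 2.17 among other cells, and 0.841 and 0.422 among effector cells. On the pro-death side Bcl2l11 gave 42.6% and 44.5% of UMIs in resting cells and 13.0% and 16.0% in effector cells, while Pmaip1 gave 5.96% and 6.93% in resting and 19.9% and 20.7% in effector cells. The summed pro-death level stayed between 329 and 374 CPM in all 6 groups. The ratio of Mcl1 to Pmaip1 was 9.92 in Mito-high and 4.46 in Mito-low over all cells. It was 8.90 and 4.51 in other cells, 17.1 and 13.3 in resting cells, and 3.98 and 3.89 in effector cells. The intervals of the log2 difference spanned 0 in resting (−0.28 to 0.96) and effector cells (−0.28 to 0.36).

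Effector and resting cells were then compared inside each library, where sort and library preparation are shared. Bcl2 was 5.35-fold lower in effector cells of Mito-high (log2 ratio −2.42, interval −2.65 to −2.21) and 10.95-fold lower in those of Mito-low (−3.45, −3.62 to −3.29). Bcl2l11 was lower by the ratios −1.78 and −1.37, and Bbc3 by −1.81 and −1.12. Bcl2l1 was higher in effector cells, with 0.99 and 2.11, as were Pmaip1 with 1.66 and 1.63 and Bak1 with 1.43 and 1.40. Bax was higher by 0.43 and 0.71, and Mcl1 lower by 0.44 and 0.09 on the log2 scale. All 8 genes thus had the same sign in both libraries, with the interval of Mcl1 in Mito-low spanning 0 (−0.25 to 0.08). In Mito-high 3 genes passed 1.5-fold upward and 3 downward, against 24.9% and 8.8% of 5844 genes. In Mito-low 4 were higher and 3 lower, against 23.5% and 8.04% of 5957 genes. The upward counts are to be read against those large backgrounds. Anti-death and pro-death genes stood on both sides: the resting set held Bcl2 with Bcl2l11 and Bbc3, and the effector set Bcl2l1 with Pmaip1, Bak1 and Bax. Median depths were 6402 UMIs in resting and 8736 in effector cells of Mito-high, and 5582 and 5288 in Mito-low. Cycling markers were higher in effector than in resting cells of Mito-high, 569 against 178 CPM, and in Mito-low they were at 53.5 and 27.6 CPM. The 4 RNA quality transcripts summed to 8238 CPM in effector and 11488 CPM in resting cells of Mito-high, and to 20362 and 23176 CPM in those of Mito-low. Within that sum Gm42418 was at 2432 CPM in effector and 8762 CPM in resting cells of Mito-low (log2 ratio −1.85), and at 1386 and 1373 CPM in Mito-high. Lars2 was at 62.5 and 144 CPM in Mito-low (−1.21). The part of these transcripts in the ratios was not tested.

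**Figure D3:**
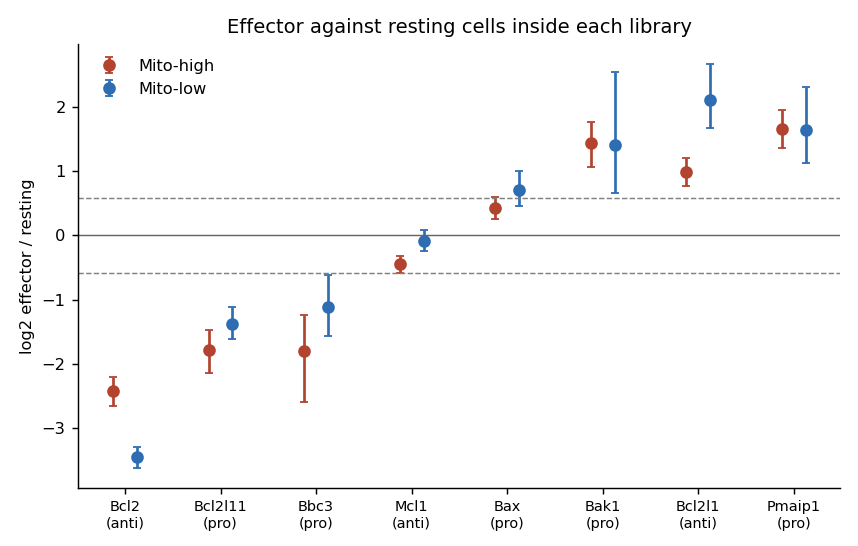
Log2 ratio of effector over resting cells inside the Mito-high (red) and the Mito-low (blue) library, with exact 95% intervals of counting error and dashed lines at 1.5-fold; anti and pro under each symbol mark the anti-death and pro-death genes. Bcl2, Bcl2l11 and Bbc3 lie below −1 in both libraries, and Pmaip1 and Bak1 above 1.

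Shares of cells with at least 1 UMI were compared as measured and at equal depth. No cell type in the sort should lack these genes, so no background share from free RNA could be measured. Of Mito-high cells 66.5% held a Bcl2 UMI, against 29.9% of Mito-low cells. After every cell was thinned to 2000 UMIs the shares were 42.0% and 18.5%. The 139 Mito-high and 491 Mito-low cells below that depth were left out. Among resting cells 82.7% and 79.5% held one as measured and 54.9% and 56.1% after thinning, the latter with intervals that overlap, although the CPM was higher in Mito-low. There the surplus lay in cells with many UMIs, since 6.32% of Mito-high and 13.9% of Mito-low resting cells had at least 4 thinned Bcl2 UMIs. Among other cells the measured shares were 62.3% and 30.8% and the thinned shares 38.6% and 19.5%, and among effector cells 33.9% and 17.5% became 15.8% and 7.50%. Bcl2l11 was found in 43.7% and 21.7% of all cells as measured and in 21.1% and 10.7% after thinning. For Mcl1 the measured shares were 86.6% and 72.3% and the thinned ones 52.5% and 45.4%, and for Bbc3 19.8% and 10.1% became 7.49% and 4.42%. Pmaip1 was the only gene found in fewer Mito-high cells as measured, 17.9% and 23.9%, and it had thinned shares of 6.18% and 11.9%. At equal depth Bcl2l1 joined it, and Bax and Bak1 had lower shares in Mito-high but overlapping intervals. The measured shares of these 3 genes, 26.1% and 25.1%, 58.1% and 49.1%, and 14.5% and 11.1%, became 9.89% and 13.0%, 24.6% and 25.5%, and 4.02% and 4.67%. The thinned intervals were 23.8% to 25.4% and 24.7% to 26.3% for Bax, and 3.67% to 4.38% and 4.29% to 5.08% for Bak1. No order is read from the measured shares of these 3 genes. They go against the CPM of Bcl2l1, and the CPM ratios of Bax and Bak1 had intervals that span 0.

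**Figure D4:**
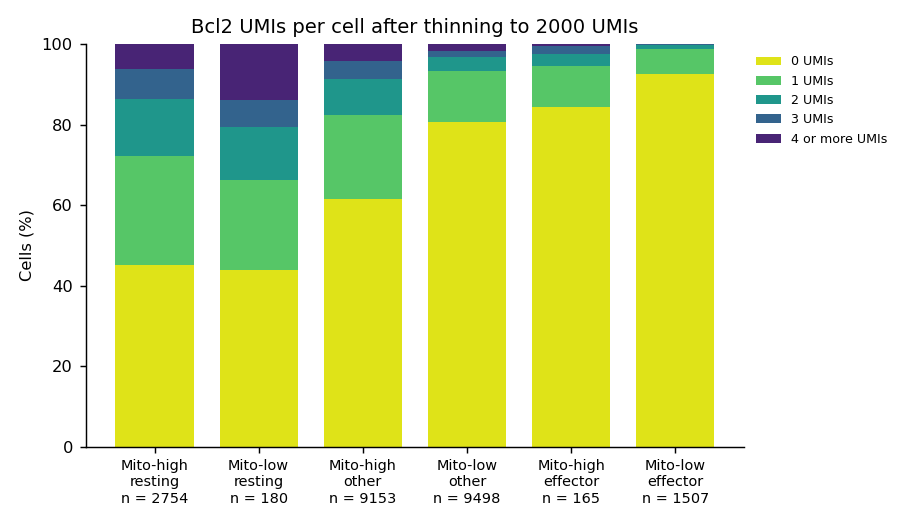
Percent of cells with 0, 1, 2, 3 or at least 4 Bcl2 UMIs after thinning each cell to 2000 UMIs, for each class in each library, with the number of cells under each bar. No Bcl2 UMI was drawn in 45.1% and 43.9% of resting cells, 61.4% and 80.5% of other cells and 84.2% and 92.5% of effector cells of Mito-high and Mito-low.

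Bcl2 and Bcl2l11 were also set against each other cell by cell within other cells, using the thinned counts. In Mito-high, cells with a Bcl2 UMI had 166 Bcl2l11 UMIs per 1000000 UMIs of other genes (156 to 175), and cells without one had 114 (108 to 121). In Mito-low the levels were 70.6 (62.3 to 79.7) and 62.0 (58.2 to 66.1), which overlap. Among effector cells of Mito-low they were 39.8 (18.2 to 75.6) with a Bcl2 UMI, from 9 UMIs, and 62.1 (53.1 to 72.0) without one. Effector cells of Mito-high had the other order, 115 (42.4 to 251) with a Bcl2 UMI, from 6 UMIs, and 54.0 (30.2 to 89.0) without one. Resting cells had 173 with and 165 without one in Mito-high, and 183 and 146 in Mito-low. The intervals overlapped in each of these effector and resting groups. Mcl1 was higher in other cells with a Bcl2 UMI, with 439 against 352 in Mito-high and 343 against 313 in Mito-low. Bax was lower in them, with 134 against 162 in Mito-high and 134 against 154 in Mito-low, as did Bcl2l1, with 58.8 against 69.6 and 60.1 against 78.7. In Mito-high the cells with a Bcl2 UMI were shallower before thinning, with medians of 5675 against 6353 UMIs.

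Depth of the cell went along with several levels inside Mito-high. Bcl2 was at 876 CPM in the 462 cells below 3000 UMIs, at 438 to 469 CPM between 3000 and 6000 UMIs, and at 267 CPM in cells of 12000 UMIs or more. Bcl2l11 was at 229 CPM in the shallowest and 73.2 CPM in the deepest of these cells, and Bbc3 at 71.2 and 17.1 CPM. Bcl2l1 was at 71.2 CPM in the shallowest cells, 39.4 CPM at 4000 to 5000 UMIs and 111 CPM in the deepest. In Mito-low Bcl2 was at 256 CPM below 3000 UMIs and between 136 and 172 CPM above. Bcl2 and Bcl2l11 were higher and Pmaip1 lower in Mito-high in each of the 7 depth ranges. Mcl1 and Bbc3 were higher in all but the deepest, where they were at 277 against 281 CPM and 17.1 against 19.1 CPM.

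Bcl2, Bcl2l11 and Pmaip1 were followed into cells chosen by other genes. These sets overlap, and they were chosen with earlier results of these data known. Among cells with a Foxp3 UMI (1953 and 2026 cells) Bcl2 was at 412 CPM in Mito-high cells and 184 CPM in Mito-low cells, and among cells without one at 364 and 156 CPM, with log2 ratios of 1.16 and 1.22. Cells with at least 2 of S100a4, Ccr2 and Il1rl1 had little Bcl2 in either library, 76.8 and 56.1 CPM, and nearly equal Bcl2l11, 60.0 and 61.0 CPM. Cells with at least 2 of Ryr2, Hdac9 and C2cd4b had equal Bcl2 within counting error, 322 and 311 CPM (log2 ratio 0.05, interval −0.08 to 0.17), but less Pmaip1 in Mito-high, 57.2 against 92.5 CPM. Cells with at least 2 of Ifit1, Ifit3 and Isg15, genes that respond to interferon, had the highest Pmaip1 of these sets in Mito-low, 108 CPM, against 46.2 CPM in Mito-high. Cycling cells had 129 and 54.2 CPM of Bcl2, from 532 and 30 cells. In the 59 and 342 cells with both Cxcr3 and Tbx21, Bcl2 was lower in Mito-high, 72.3 against 108 CPM (−0.56, −1.02 to −0.16), and so was Bcl2l11, 36.8 against 77.8 CPM.

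**Figure D5:**
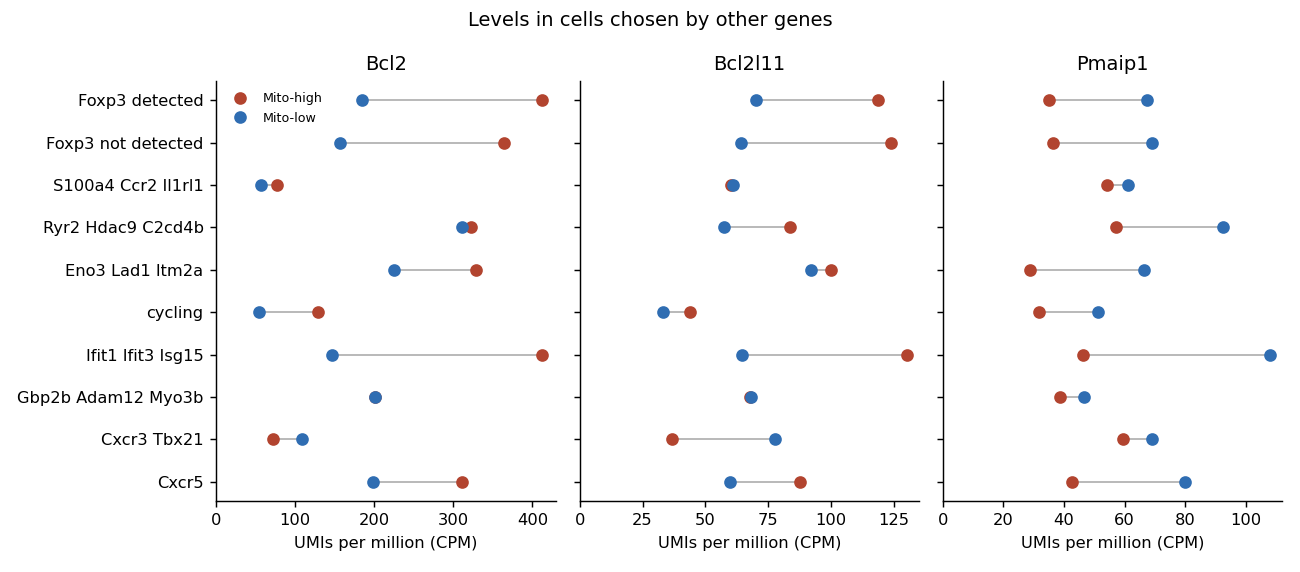
Levels of Bcl2, Bcl2l11 and Pmaip1 in CPM (linear axes from 0) in cells chosen by other genes, in the Mito-high (red) and Mito-low (blue) library; grey lines join the libraries. Bcl2 differs most between the libraries in cells with at least 2 of Ifit1, Ifit3 and Isg15 (412 and 147 CPM) and is equal in cells with at least 2 of Gbp2b, Adam12 and Myo3b (201 and 201 CPM).

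The wider family held 2 more abundant survival genes, Bcl2a1b and Bcl2a1d, copies of A1, which NF-kappaB signalling raises. Bcl2a1b was at 221 CPM in Mito-high cells and 368 CPM in Mito-low cells (log2 ratio −0.74), and Bcl2a1d at 54.1 and 103 CPM (−0.92). Both were higher in effector than in resting cells, Bcl2a1b by 2.08 in Mito-high and 2.52 in Mito-low on the log2 scale, and Bcl2a1d by 2.86 and 3.26. They are near-identical copies, so the split of reads between them is uncertain. Of the wider pro-death genes Bnip3l, which marks mitochondria for removal, was at 154 and 168 CPM, Bad, which binds BCL2 and BCL-XL, at 24.7 and 24.8 CPM, and Bid, which links death receptors to mitochondria, at 9.44 and 13.1 CPM. Bcl2l2, Bcl2a1a, Bcl2l10, Bik, Hrk, Bmf, Bok, Bcl2l14 and Bnip3 were all below 5 CPM in both libraries.

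Genes up- and downstream of the family were taken from lists, and in 4 of the 5 lists the genes past 1.5-fold were lower in Mito-high. Over all genes 10.7% were lower and 3.65% higher, so that none higher in a list of 9 to 14 genes is near the background. Of 9 apoptosome and caspase genes at 20 CPM or more, none was at least 1.5-fold higher. Apaf1, the scaffold of the apoptosome, was lower, at 21.7 against 41.2 CPM (log2 ratio −0.92). The caspase inhibitors Xiap and Birc2 had −0.40 and −0.39, and the median of the list was −0.19, near the −0.15 of all genes. Of 9 death receptor genes, 2 were lower, Tnfrsf1b with −1.14 and Tnfrsf10b with −0.95, and none was higher; Fas was at 67.1 against 47.3 CPM (0.51), Cflar, the inhibitor of caspase 8, had −0.45, and the median was −0.38.

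Of 14 genes of survival cytokine signalling, 3 were at least 1.5-fold lower and none was higher: Il7r (−1.26), Socs3 (−0.72) and Pim1 (−0.62), with Cish at −0.54 and a list median of −0.32. Of 9 p53 and FOXO genes, 2 were lower and none was higher: the cell cycle inhibitor Cdkn1a (−1.995) and Trp53inp1 (−1.01), with Ccng1 at −0.44, Sesn1 at −0.41 and a median of −0.29. None of 9 genes of Mcl1 turnover and the outer mitochondrial membrane passed 1.5-fold, with 0.48 for Vdac1, 0.40 for Vdac3, 0.39 for Vdac2, 0.29 for Dynll1 and a median of 0.04.

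For each of the 8 genes the 3 genes with the most similar pattern were sought among 6231 candidates, by the root mean square difference of centred log2 (CPM + 1) over the 6 groups of class and library. Bcl2 was followed most closely by Actn1 (0.18), Bicdl1 (0.20) and St8sia1 (0.22), Bcl2l11 by Dusp10 (0.12), Ndrg3 (0.12) and Ctsw (0.13), and Bbc3 by Tmem64 (0.085), Tsc22d3 (0.12) and Pvr (0.15). Bcl2l1 was followed by Ctif (0.12), Lyrm9 (0.14) and Tmem29 (0.15), Pmaip1 by Iffo2 (0.098), Mapre2 (0.10) and Vamp5 (0.11), and Bak1 by Ppil1 (0.079), Incenp (0.097) and Bad (0.12). Mcl1 was followed by Osbpl8 (0.025), Trpc4ap (0.032) and Cltb (0.039), and Bax by Ramac (0.025), Srp14 (0.030) and Isca2 (0.032). Among the 8 genes themselves the closest pair was Bcl2l11 and Bbc3 (0.18). The groups share 2 libraries, and likeness over 6 groups is a description.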

How the data were processed

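Raw UMI counts per gene and barcode were deposited by the authors, 1 table for each library, written by Cell Ranger 7.1.0 per the file headers. The submitters' processing notes also name mm10 and Seurat 4.3.0.1. The sources used here do not give the annotation, the use of intronic reads, the strand rule or any barcode filter. Bcl2 overlaps the antisense gene D630008O14Rik (5.03 and 1.50 CPM) and Bak1 the opposite-strand gene Ggnbp1 (1.50 and 1.60 CPM), whose reads may not be told apart from theirs.

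From the counts, UMIs were summed per library and class and scaled to CPM. Log2 ratios used 1 added to each sum. Intervals are exact at 95%: Poisson for sums, conditional binomial for ratios and Clopper-Pearson for shares. Libraries differ in depth (89996794 and 60688904 UMIs), and thinning to 2000 UMIs per cell was used for shares. Scrublet in scanpy 1.11.5, at an expected rate of 0.08, marked 0 cells in both libraries, under the 0.5% at which a caller is held to work, and no doublets were removed. Alternatives covered scaling (TMM in edgeR 4.0.16), barcode filters, depth, class rules and the genes in the balance. Scripts (Python 3.11.15, scipy 1.17.1) were checked on simulated data. Gene positions are from GENCODE M21 and upstream windows from RefSeq, both on GRCm38.

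Named genes are the 8 members, the wider family, up to 4 genes of each list with the largest absolute all-cell ratio at 20 CPM or more, and the 3 most similar genes for each member. Other genes, and the effector over resting ratios named for the lists, were chosen after their values were seen. Members, classes and the 19 lists were chosen with earlier results of these data known. A gene of these lists is not reported here.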

Additional observations from a re-analysis of the deposited data

Results flagged for a closer look

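For 3 genes the ratio of Mito-high over Mito-low had opposite signs in 2 classes, with intervals of counting error on opposite sides of 0. Each class of each library is 1 sample, so the differences between classes were not tested. Bcl2 was lower in Mito-high among resting cells and higher among effector and other cells, and the resting log2 ratio was below the effector ratio by −1.03 and below the ratio of other cells by −1.28. Bcl2l1 was higher in Mito-high among resting cells, on 36 Mito-low UMIs, and lower among effector cells, a difference of 1.11. Bbc3 was lower in Mito-high among effector cells, on 20 Mito-high UMIs, and higher among other cells, a difference of −1.20. The signs of Bcl2l1 in resting cells and of Bbc3 in effector cells turned under other settings. So did that of Bcl2l1 in effector cells, which was 0.09 with thinned cells and classes redrawn. In the effector cells as first drawn, thinned Bcl2l1 kept its order, with means of 0.206 UMIs per cell in Mito-high and 0.265 in Mito-low. The signs of Bcl2 held in each class under every alternative run.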

How the results depend on the processing

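Of 296 gene ratios recomputed under alternatives 259 kept their sign, as did 122 of the 127 whose main value was past 1.5-fold. The 5 that turned were Bcl2l1 in resting cells of 4000 to 6000 UMIs (−0.62), Bak1 in thinned resting cells (−0.26), and Bbc3 in effector cells of 4000 to 6000 UMIs (0.42), thinned (0.89) or defined by all 3 genes (0.36). The thinned ratios among them use classes redrawn on the thinned counts. Over all cells Bcl2 ranged from 0.61 to 1.68, Bcl2l11 from 0.62 to 1.26 and Pmaip1 from −1.21 to −0.68, each past 1.5-fold in all 15 alternatives, while Bcl2l1 ranged from −0.85 to 0.03.

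Among cells of 4000 to 6000 UMIs, which left 31 effector cells of Mito-high and 72 resting cells of Mito-low, 2 genes were lower over all cells, 1 was higher and 1 lower in resting cells, and 0 were lower in effector cells; the anti-death to pro-death difference was 0.52 in all, −0.42 in resting, 0.32 in effector and 0.44 in other cells. With thinned cells and classes redrawn, 0 genes were higher in resting and 0 lower in effector cells. The difference was then 0.44 in all, 0.28 in effector and 0.39 in other cells. With effector cells defined by all 3 genes, 23 and 233 cells, 1 gene was higher and 3 lower. The difference over all cells was 0.20 with classes weighted alike. With each gene weighted alike it was 0.30 in all, 0.083 in resting, where the sign turned, and 0.26 in other cells. With Bcl2 and Bcl2l1 as the only anti-death genes it was 0.71, −0.40 and 0.58 in these classes. Without Pmaip1 it was 0.22 in all and 0.13 in other cells, and with the wider family 0.038 and 0.067. Of all genes, 211 were higher and 617 lower over all cells, which became 74 and 197 at 2-fold, 451 and 1139 at 5 CPM or more, and 2616 and 5670 with no minimum; the larger numbers come with more genes counted.

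No paired analysis was possible because each group holds 1 library. For the same reason no replicate was left out, and dye population, library and sequencing depth cannot be told apart. Depth limits the classes that hold few cells, above all resting cells of Mito-low and effector cells of Mito-high.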
